A study of Homo sapiens with 10 samples.

Results

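Mitochondrial ribosomal proteins, whose human genes carry the symbols MRPL (large subunit) and MRPS (small subunit), are made in the cytosol and imported into mitochondria. The genes described here were all rows of the deposited count table whose symbol was MRPL or MRPS followed by a number and at most 1 further letter, a rule that uses no measured value. This gave 78 of the 28380 genes in the table. All 78 had enough counts to be tested for a difference between sulforaphane (SFN) and vehicle, among 13378 genes tested in all.

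The RNA came from RPE-1 cells, an established line of human retinal pigment epithelial cells immortalized with telomerase. Of 10 samples, 5 were treated for 4 h with SFN, an electrophilic isothiocyanate from cruciferous vegetables, at 25 µM, and 5 received the vehicle DMSO for the same time. The groups differed in no other labelled respect. The methods state in general that experiments rested on independent replicates, without saying whether these 5 per group were separate cultures or days, and p-values measure the spread between these samples. Libraries of transcript 3′ ends gave between 15689294 and 20666692 counts per DMSO sample and between 12375860 and 17308706 per SFN sample. Of 12 markers of retinal pigment epithelium, 6 passed the filter on low counts (BEST1, PMEL, OTX2, MITF, KRT8 and KRT18), while RPE65, RLBP1, TYRP1 and SERPINF1 had at most 4 counts in any library. Markers of blood (0 of 3 tested) and endothelium (0 of 3) were near 0, and of 4 fibroblast markers COL1A1 passed the filter.

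The mitochondrial ribosome translates the few mRNAs encoded by mitochondrial DNA, all of which specify core subunits of the oxidative phosphorylation complexes. Its RNA is transcribed inside the organelle, but every protein of it is encoded in the nucleus, so that assembly depends on proteins imported from the cytosol. Part of these proteins descend from bacterial ribosomal proteins and the rest were added during the evolution of mitochondria, and both subunits contain both kinds.

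Promoters of the 4 members that passed the test with all libraries are shown first, because these genes share a function and moved in opposite directions. The sequences are the 250 bases before the RefSeq transcript start (GRCh38.p14), read 5′ to 3′ on the strand of the gene, and capitals mark matches to the ETS core CCGGAAG or its reverse complement CTTCCGG, the motif bound by GABP (NRF-2), a regulator of nuclear genes for mitochondrial proteins. MRPS10 is from chr6:42217862-42218111 on the minus strand, MRPL18 from chr6:159789562-159789811 on the plus strand, MRPL3 from chr3:131502972-131503221 on the minus strand and MRPS26 from chr20:3045802-3046051 on the plus strand.
MRPS10: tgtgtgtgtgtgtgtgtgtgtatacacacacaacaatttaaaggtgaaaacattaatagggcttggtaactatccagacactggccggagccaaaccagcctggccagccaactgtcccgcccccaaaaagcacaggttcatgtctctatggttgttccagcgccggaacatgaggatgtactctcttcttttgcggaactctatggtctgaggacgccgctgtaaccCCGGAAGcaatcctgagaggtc
MRPL18: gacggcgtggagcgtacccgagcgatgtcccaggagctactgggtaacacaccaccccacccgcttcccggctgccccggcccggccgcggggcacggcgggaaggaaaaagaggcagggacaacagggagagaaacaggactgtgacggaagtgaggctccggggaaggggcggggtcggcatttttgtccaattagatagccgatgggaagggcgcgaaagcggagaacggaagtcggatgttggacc
MRPL3: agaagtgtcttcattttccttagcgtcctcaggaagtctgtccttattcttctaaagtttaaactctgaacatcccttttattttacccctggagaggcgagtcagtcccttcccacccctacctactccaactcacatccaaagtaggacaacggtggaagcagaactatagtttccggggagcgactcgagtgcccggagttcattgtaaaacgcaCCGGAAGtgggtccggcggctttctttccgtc
MRPS26: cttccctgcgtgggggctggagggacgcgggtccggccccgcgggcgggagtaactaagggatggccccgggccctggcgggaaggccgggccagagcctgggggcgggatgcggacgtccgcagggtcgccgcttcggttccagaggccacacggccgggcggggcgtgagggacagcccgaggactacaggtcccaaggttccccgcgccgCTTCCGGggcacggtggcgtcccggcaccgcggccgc

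The promoters of MRPS10 and MRPL3, which rose, and of MRPS26, which fell, each held 1 ETS match. The window of MRPS10 also held 1 match to the YY1 motif, and that of MRPL18, which rose, held no match to any motif searched. RefSeq windows of 300 bases (250 before and 50 after the start) matched 69 of the 78 members, and both strands were searched. The ETS core was found in 29 of the 69 (42%), against 10.7% of all 27305 windows and 20.2% of the 9724 windows of tested genes. The YY1 motif AANATGGCG was found in 18 (26.1%), against 3.37% of all windows and 7.27% of those of tested genes. The consensus motif of NRF1, a factor of mitochondrial biogenesis, was found in 11.6% of member windows and 12.3% of windows of tested genes, the antioxidant response element TGACNNNGC in 11.6% and 15.1%, the E-box CACGTG in 8.7% and 10.2%, and the amino acid response element TGATGNAA in 1.45% and 1.56%. Of the 69 members, MRPL48 and MRPL51 held the heat shock element consensus (2.9%, against 0.329% for tested genes). No string contains another of those searched, although matches of different motifs may share bases, and a match is a description of letters only.

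Before the comparison, 1 library stood apart. DMSO replicate 1 had the highest CPM (counts relative to library size after TMM scaling) of the 5 DMSO libraries in 73 of 78 members (93.6%), against 40.5% of all tested genes, and the highest of all 10 libraries in 61 (78.2%, against 29.1%). In it the median member lay 2.06-fold above the mean of DMSO replicates 2 to 5, with a range from 0.557-fold for MRPL38 to 6.42-fold for MRPL23, whereas the median over all tested genes was 0.965-fold. The summed level of the members was 7314 CPM in DMSO replicate 1 and 3449, 3080, 3327 and 3240 CPM in DMSO replicates 2 to 5. In SFN replicates 1 to 5 it was 4130, 4925, 4076, 3931 and 3193 CPM. The group means, 4082 ± 1810 CPM in DMSO and 4051 ± 617 CPM in SFN (SD, n = 5 each), therefore differed by far less than the spread, while the 4 DMSO libraries other than replicate 1 averaged 3274 ± 155 CPM and lay below all SFN libraries but replicate 5.

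Libraries with more of the members also held relatively more counts from short transcripts. For each doubling of transcript length, log2 CPM relative to the mean library changed by -0.271 in DMSO replicate 1, by 0.0872 to 0.148 in the other DMSO libraries and by -0.183 (replicate 2) to 0.109 (replicate 5) in SFN. Member transcripts were short, with a median length of 1242 bases against 3173 for all tested genes, and 67 of the 78 were below the latter. Within the members, DMSO replicate 1 exceeded the other DMSO libraries by a median of 2.4-fold in the 39 members of up to 1224 bases and 1.93-fold in the longer ones. The part that library differences in length had in each result below was not tested, and values without DMSO replicate 1 are given beside the member results that turn on it.

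**Figure D1:**
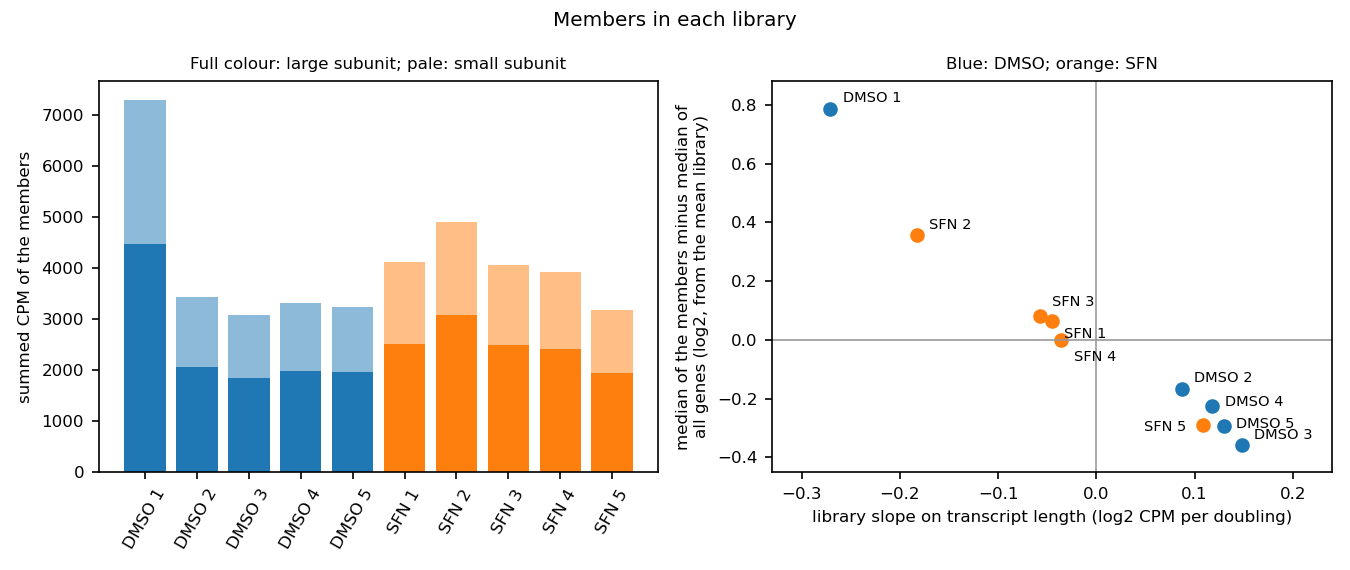
Left: summed CPM of the mitochondrial ribosomal protein genes in each library, with large-subunit genes in full colour and small-subunit genes in pale colour on top (MRPS36 left out). Right: for each library, the median log2 deviation of the members from the mean library, minus that of all tested genes, against the library's slope of log2 CPM on the log2 of transcript length. DMSO replicate 1 (7314 CPM in sum, slope -0.271) lies apart at the upper left, and SFN replicate 5 (3193 CPM, slope 0.109) lies among DMSO replicates 2 to 5.

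With all 10 libraries, SFN left most mitochondrial ribosomal protein mRNAs within the spread of the replicates. In the quasi-likelihood test of edgeR, with p-values adjusted by the Benjamini-Hochberg method across all genes tested, 3 of 78 members were increased (MRPL18, MRPS10 and MRPL3), 1 was decreased (MRPS26) and 74 had an adjusted p of 0.05 or more. The increased share of 3.85% stood beside 9.07% of all tested genes, and the decreased share of 1.28% beside 13.9%. At an unadjusted p under 0.05, 5 members were increased, against 14.6% of all tested genes, and 6 decreased, against 20.0%. No member passed the test with a change above 2-fold, against 8.69% of all tested genes. Of the log2 fold changes, 34 were positive and 44 negative, the median was -0.05 (all tested genes -0.03) and the extremes were -0.97 and 0.60. Every SFN library lay above every DMSO library for 2 members (2.56%, against 8.78% of all tested genes) and below for 1 member (1.28%, against 11.1%).

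These counts turned on the libraries used. Without DMSO replicate 1, 34 members were increased (43.6%, against 22.5% of the genes tested then) and 3 decreased (3.85%, against 23.5%). All 4 genes called with all libraries were among them. The median log2 fold change became 0.29 (all genes -0.003), with 67 positive values. Every SFN library was then above every remaining DMSO library for 13 members (16.7%, against 16.6% of all tested genes) and below for 1 (1.28%, against 19.6%). Without any of the other 9 libraries, between 0 (without DMSO replicate 2 or 3 or SFN replicate 1 or 4) and 4 (without SFN replicate 5) members were increased and 1 or 2 decreased, while 6.66% to 8.39% of all genes tested then were increased and 10.8% to 13.2% decreased. Counts were in addition corrected for transcript length, an alternative chosen after seeing the data. Without DMSO replicate 1, this fit had 22 members increased and 9 decreased, against 25.3% and 22.4% of all genes. The member median was 0.07. Of the 34 increased members 20 were also increased there, and all 3 decreased members were also decreased. With all libraries, the length correction alone gave 3 members increased (3.85%, against 13.2% of all genes) and 8 decreased (10.3%, against 15.5%). A model with each library's length slope as a covariate gave 6 increased (7.69%, against 24.6% of all genes). In that model 35 members were decreased (44.9%, against 25.6% of all genes), among them MRPS26. The member median there was -0.20 (all genes -0.001). The slopes were computed from these same counts and went partly with treatment. They were 0.0872 to 0.148 in DMSO replicates 2 to 5 and -0.183 to -0.0355 in SFN replicates 1 to 4. That model therefore cannot fully tell treatment and slope apart.

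**Figure D2:**
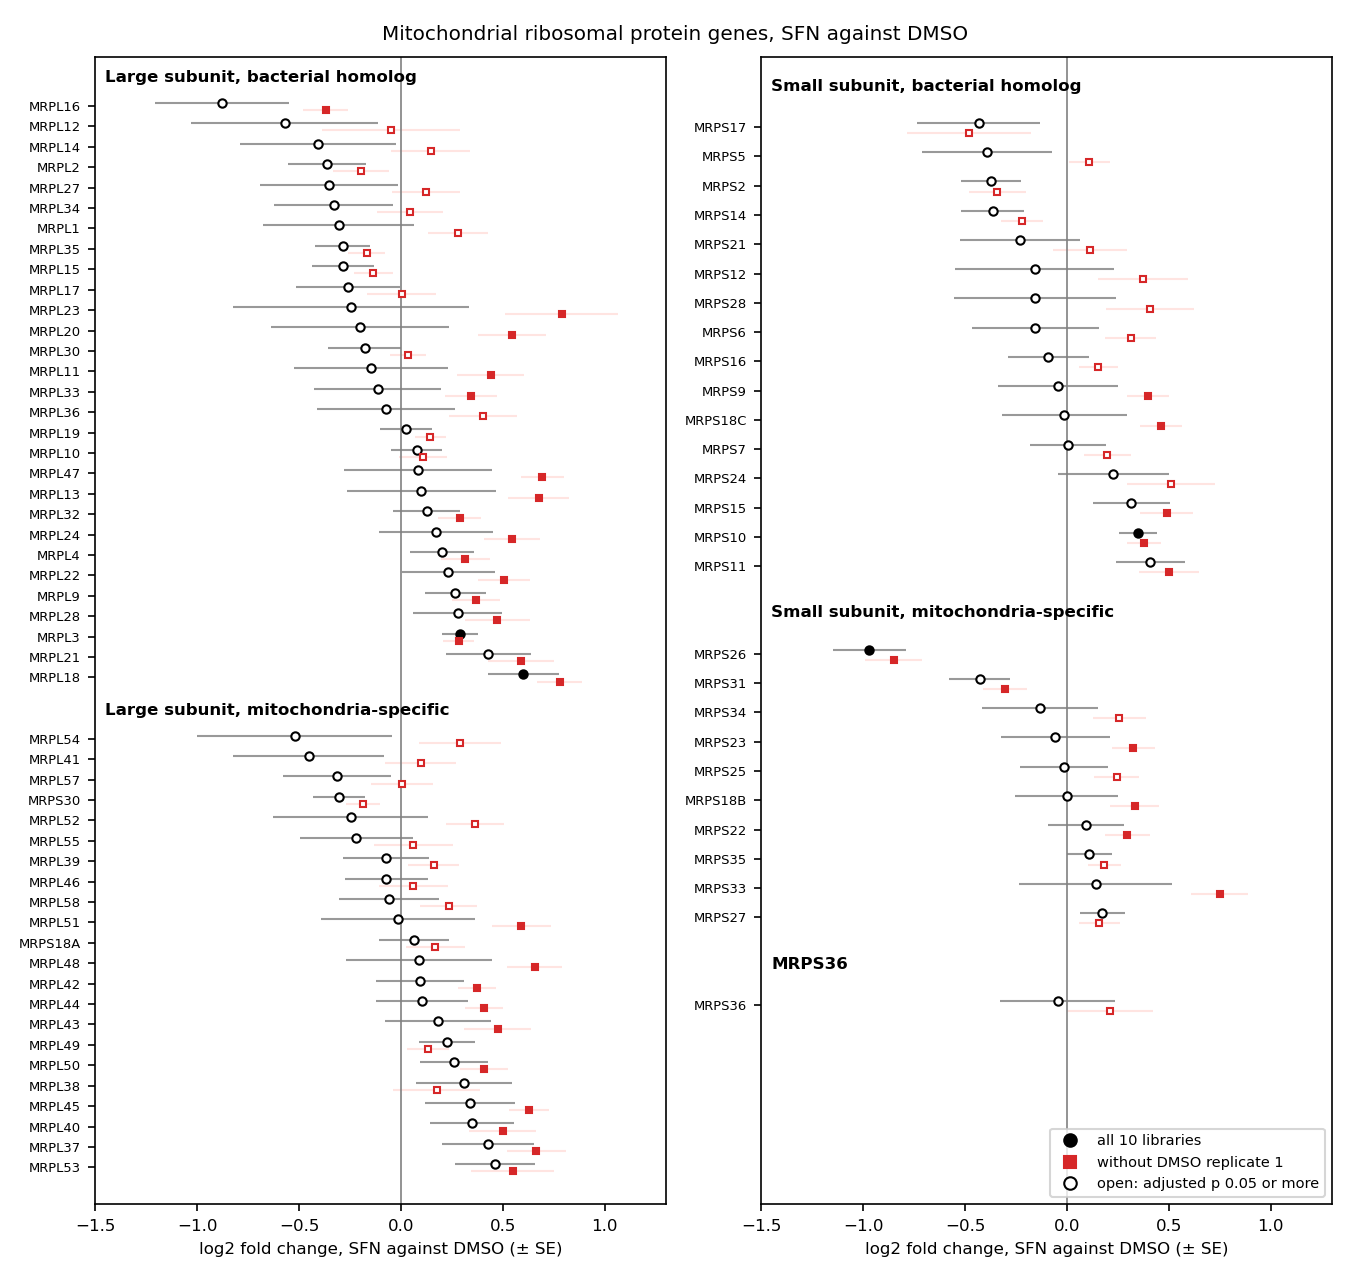
Log2 fold change (SFN against DMSO, ± standard error) of all 78 members, grouped by subunit and ancestry and sorted within groups. Black circles use all 10 libraries and red squares leave out DMSO replicate 1, filled symbols have an adjusted p under 0.05 by edgeR, and most red squares lie to the right of their black circles, whose error bars are wider.

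MRPS26, a small-subunit protein with no bacterial counterpart, was the member that fell. It lies on chromosome 20 (GRCh38, 3046052 to 3048250). In DMSO replicates 1 to 5 it had 55.0, 41.4, 40.1, 33.4 and 36.0 CPM, and in SFN replicates 1 to 5 it had 19.2, 23.8, 26.1, 21.5 and 14.7 CPM. All 5 SFN libraries were below all 5 DMSO libraries. The mean went from 41.2 ± 8.36 to 21 ± 4.38 CPM (SD, n = 5 each), a log2 fold change of -0.97 (standard error 0.18, adjusted p = 0.002 by edgeR). Without DMSO replicate 1 it was -0.85 (adjusted p = 0.00028), and MRPS26 passed the test under all 18 alternatives (other scalings, tests, filters and models, corrections for length, and each library left out), with values from -1.14 to -0.85.

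MRPL18 rose the most of the 3 increased members with all libraries. It belongs to the large subunit, and a cytosolic form of it has been linked to translation of heat shock mRNAs. It lies on chromosome 6 (159789812 to 159798436). In DMSO it had 94.7, 55.8, 54.5, 57.0 and 57.8 CPM in replicates 1 to 5, and in SFN 96.7, 117, 101, 95.3 and 74.8 CPM. The groups overlapped only through DMSO replicate 1, which stood above SFN replicate 5. The log2 fold change was 0.60 (standard error 0.18, adjusted p = 0.028 by edgeR) with all libraries and 0.78 (standard error 0.11, adjusted p = 6.5e-05) without DMSO replicate 1. Leaving out DMSO replicate 2, 3, 4 or 5, or SFN replicate 1, 2, 3 or 4, gave adjusted p-values between 0.05 and 0.072, and corrected for transcript length the value was 0.51 (adjusted p = 0.00024).

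MRPS10, a small-subunit protein of bacterial ancestry on chromosome 6 (42206807 to 42217861), had 60, 52.6, 47.5, 57.2 and 56.9 CPM in DMSO replicates 1 to 5 and 73.0, 68.7, 68.5, 72.1 and 66.9 CPM in SFN replicates 1 to 5. Every SFN library was above every DMSO library, and DMSO replicate 1 lay close to its group. The log2 fold change was 0.35 (standard error 0.10, adjusted p = 0.02 by edgeR), and the adjusted p was 0.061 without DMSO replicate 2, 0.053 without DMSO replicate 3, 0.058 without SFN replicate 1 and 0.053 without SFN replicate 4. It was 0.11 with no low-count filter and 0.064 with the replicate number as a block, and 12 of 18 alternatives passed. MRPL3, which lies near the catalytic centre of the large subunit and is encoded on chromosome 3 (131462212 to 131502983), had 141, 141, 129, 145 and 150 CPM in DMSO and 178, 184, 172, 167 and 161 CPM in SFN. Again no SFN library reached down to the DMSO range, although the change was small, from 141 ± 7.79 to 173 ± 8.94 CPM (SD, n = 5 each). Its log2 fold change of 0.29 (standard error 0.09, adjusted p = 0.035 by edgeR) passed in 5 of 18 alternatives. Its adjusted p was 0.16 with the correction for transcript length and between 0.052 and 0.088 without each library in turn other than DMSO replicate 1 or SFN replicate 5. With length corrected and DMSO replicate 1 left out it was 0.15 by edgeR. MRPL3 also did not pass with limma-voom, with no low-count filter or with the replicate number as a block.

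**Figure D3:**
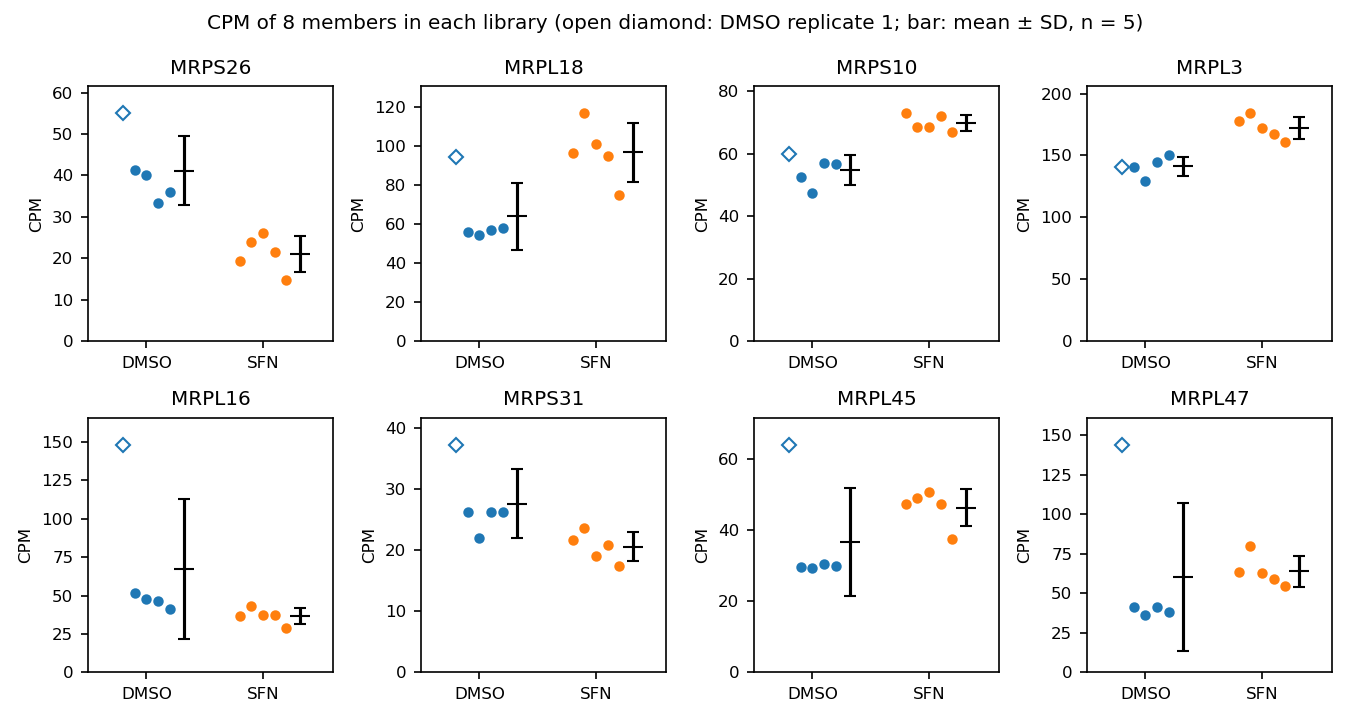
CPM of 8 members in each library (y axis from 0), with DMSO in blue, SFN in orange and DMSO replicate 1 as an open diamond; black bars give the mean ± SD (n = 5). MRPS26, MRPS10 and MRPL3 do not overlap between groups, whereas MRPL16, MRPL45 and MRPL47 have DMSO replicate 1 above all other libraries.

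Among the 51 large-subunit members, 2 were increased (3.92%, against 9.07% of all tested genes) and 0 decreased (against 13.9%) with all libraries by edgeR, and at an unadjusted p under 0.05 these were 3 and 2. Without DMSO replicate 1, 25 were increased (49%, against 22.5%) and 1 decreased (1.96%, against 23.5%). The 29 of bacterial ancestry had a median log2 fold change of -0.11 with all libraries and 0.29 without DMSO replicate 1, and the 22 found only in mitochondria had medians of 0.08 and 0.33. MRPL16, a protein of bacterial ancestry, was the large-subunit gene that passed as decreased without DMSO replicate 1 and not with all libraries in the same test. It had 148 CPM in DMSO replicate 1, 51.9, 48.0, 46.7 and 41.3 CPM in DMSO replicates 2 to 5 and 36.7, 43.2, 37.1, 37.1 and 28.7 CPM in SFN. SFN replicate 2 lay above DMSO replicate 5, so the groups overlapped with and without DMSO replicate 1. The log2 fold change was -0.88 (standard error 0.33, adjusted p = 0.077 by edgeR) with all libraries and -0.37 (standard error 0.11, adjusted p = 0.015) without that library. With all libraries it passed under 4 alternatives, which were DESeq2 (-0.87, adjusted p = 0.041), no low-count filter (-0.87, adjusted p = 0.041), the correction for transcript length (-0.86, adjusted p = 0.0024) and the length slope covariate (-1.02, adjusted p = 5.4e-08).

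MRPL47 and MRPL23, whose proteins lie close to the exit of the nascent chain, were the large-subunit genes with the largest increases among those that passed without DMSO replicate 1 and not with all libraries. MRPL47 had 144 CPM in DMSO replicate 1, 41.6, 36.1, 41.2 and 38.4 CPM in the other DMSO libraries and 63.4, 79.8, 62.9, 59.0 and 54.4 CPM in SFN. The SFN libraries thus lay above 4 DMSO libraries and below the fifth. Its log2 fold change was 0.09 (standard error 0.36, adjusted p = 0.90 by edgeR) with all libraries and 0.69 (standard error 0.11, adjusted p = 0.00015) without DMSO replicate 1. MRPL23 was a low-count gene, with 22.7, 3.42, 4.25, 3.55 and 2.9 CPM in DMSO and 4.23, 9.58, 7.82, 6.34 and 3.04 CPM in SFN. Here the groups overlapped even without DMSO replicate 1, and the log2 fold change went from -0.25 (adjusted p = 0.81 by edgeR) to 0.79 (standard error 0.28, adjusted p = 0.031). When the fit without DMSO replicate 1 was also corrected for transcript length, the value for MRPL23 was 0.42 (adjusted p = 0.12).

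MRPL44 and MRPL45 are proteins found only in mitochondrial ribosomes, the first related to ribonuclease III and the second at the tunnel exit, where it anchors the ribosome to the inner membrane. MRPL45 had 64.0 CPM in DMSO replicate 1, 29.7, 29.3, 30.5 and 30.0 CPM in the other DMSO libraries and 47.4, 49.0, 50.6, 47.3 and 37.5 CPM in SFN. The table also holds the pseudogene MRPL45P2, with 10 to 66 counts per library, and reads could have been divided between it and MRPL45. MRPL44 had 67.1 CPM, then 31.0, 29.5, 31.5 and 30.4 CPM, and in SFN 44.6, 45, 40.7, 38.6 and 34.7 CPM. In both genes all SFN libraries were above DMSO replicates 2 to 5 and below DMSO replicate 1. The log2 fold change of MRPL45 was 0.34 (adjusted p = 0.31 by edgeR) with all libraries and 0.63 (adjusted p = 0.00016) without DMSO replicate 1, and that of MRPL44 was 0.10 (adjusted p = 0.79) and 0.41 (adjusted p = 0.0032). MRPL58, a peptidyl-tRNA hydrolase built into the large subunit that frees stalled ribosomes, ranged from 24.9 to 64.9 CPM in DMSO (median 31.6) and from 27.1 to 47.4 CPM in SFN (median 34.9). Its log2 fold change was -0.06 (adjusted p = 0.90 by edgeR) and 0.23 (adjusted p = 0.19) without DMSO replicate 1.

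Despite its symbol MRPS30 is a protein of the large subunit. It had 61.9, 39.4, 43.7, 44.2 and 44.9 CPM in DMSO and 39.4, 39, 35.7, 39.8 and 35.7 CPM in SFN. Of the 5 SFN libraries, 4 were at or below the lowest DMSO library and SFN replicate 4 was slightly above it, and the log2 fold change of -0.30 (standard error 0.13) had an adjusted p of 0.11 by edgeR with all libraries and 0.082 without DMSO replicate 1. With the correction for transcript length it was -0.36 (adjusted p = 0.01). MRPL12, the stalk protein that also binds the mitochondrial RNA polymerase, had the lowest mean of all members, 1.96 ± 1.38 CPM in DMSO and 1.32 ± 0.637 CPM in SFN (SD, n = 5 each). This corresponds to 21 to 71 counts per DMSO library and 9 to 26 per SFN library, and the log2 fold change was -0.57 (standard error 0.46, adjusted p = 0.42 by edgeR) with all libraries and -0.05 (standard error 0.34, adjusted p = 0.92) without DMSO replicate 1. With the length slope covariate it was -0.82 (adjusted p = 0.02).

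Of the 26 small-subunit members, 1 was increased and 1 decreased with all libraries (3.85% each, against 9.07% and 13.9% of all tested genes). When DMSO replicate 1 was left out, 9 were increased (34.6%, against 22.5%) and 2 decreased (7.69%, against 23.5%). The 16 of bacterial ancestry had a median log2 fold change of -0.12 with all libraries and 0.34 without that library, and the 10 found only in mitochondria had medians of -0.01 and 0.25. MRPS33 had the largest increase among small-subunit genes that passed without DMSO replicate 1 and not with all libraries. It had 151, 49.1, 35.1, 41.9 and 38.6 CPM in DMSO and 69.7, 91.1, 67.4, 66.5 and 52.9 CPM in SFN, with no overlap once DMSO replicate 1 was set aside. The log2 fold change was 0.14 (standard error 0.38, adjusted p = 0.84 by edgeR) with all libraries and 0.75 (standard error 0.14, adjusted p = 0.00065) without it. MRPS31 went the other way, with 37.2, 26.2, 22.0, 26.2 and 26.3 CPM in DMSO and 21.6, 23.6, 19.1, 20.8 and 17.4 CPM in SFN. SFN replicate 2 lay above DMSO replicate 3, and the log2 fold change was -0.43 (standard error 0.15, adjusted p = 0.057 by edgeR) and -0.30 (adjusted p = 0.031) without DMSO replicate 1. It also passed with DESeq2 (-0.42, adjusted p = 0.042), with the correction for transcript length (-0.50, adjusted p = 0.001), with the length slope covariate (-0.54, adjusted p = 4.5e-05) and without DMSO replicate 3 (-0.50, adjusted p = 0.039). The table also holds the pseudogenes MRPS31P4, with 15 to 58 counts per library, and MRPS31P5, with 0 to 15, so reads could have been divided between near-identical copies.

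MRPS18A, MRPS18B and MRPS18C are paralogs related to 1 bacterial protein, of which MRPS18A sits in the large subunit and the others in the small subunit. In the medians above, MRPS18C was counted under bacterial ancestry and the other two, which occupy positions with no bacterial counterpart, under the proteins found only in mitochondria. MRPS18A had 24, 18.1, 14.5, 18.9 and 16.5 CPM in DMSO and 19.5, 23.1, 18.2, 21.9 and 13.5 CPM in SFN, a log2 fold change of 0.06 (standard error 0.17, adjusted p = 0.84 by edgeR). MRPS18B had 135, 58.7, 62.6, 55.1 and 54.8 CPM in DMSO and 75, 93.6, 73.4, 66.8 and 56.8 CPM in SFN. MRPS18C had 146, 51.6, 46.5, 49.5 and 48.4 CPM in DMSO and 73.3, 75.7, 68.1, 68.5 and 52.7 CPM in SFN. None of the 3 passed with all libraries, while without DMSO replicate 1 the log2 fold changes were 0.17 (adjusted p = 0.35 by edgeR) for MRPS18A, 0.33 (adjusted p = 0.036) for MRPS18B and 0.46 (adjusted p = 0.0025) for MRPS18C. With the correction for transcript length added to that fit, MRPS18B had 0.10 (adjusted p = 0.26) and MRPS18C had 0.27 (adjusted p = 0.0049). Differences between the paralogs were not tested. MRPS36 carries the symbol of a small-subunit gene but encodes a part of the 2-oxoglutarate dehydrogenase complex. It ranged from 4.58 to 15 CPM in DMSO (median 8.52) and from 6.35 to 12.6 CPM in SFN (median 7.96), with a log2 fold change of -0.05 (adjusted p = 0.93 by edgeR) and 0.21 (adjusted p = 0.43) without DMSO replicate 1.

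Members differed widely in the counts they drew. On the scale of CPM per gene, which for 3′ end libraries was not divided by transcript length, the mean over DMSO libraries ranged from 1.96 CPM for MRPL12 to 188 CPM for MRPL51, with a median of 44.4 CPM. MRPL51 had 449 CPM in DMSO replicate 1, 132, 123, 122 and 117 CPM in the other DMSO libraries and 188, 252, 190, 177 and 125 CPM in SFN. Among the 5 members under 5 CPM (MRPL12, MRPL53, MRPS17, MRPS24 and MRPL38), 4 shared some of the last 500 bases of their transcript with an exon of another gene on the same strand in GENCODE 44, where reads may have been assigned to neither gene. In all, 10 members shared such bases with a gene on the same strand and 16 with a gene on the opposite strand. MRPS26, MRPL18, MRPS10, MRPL3, MRPL16 and MRPS31 shared none. MRPS18A and MRPS18C shared all 500 with genes on the opposite strand (RSPH9 and ABRAXAS1), MRPL44 shared 225 and MRPL47 shared 123 (ACTL6A). Since the use of strand in counting is not given in the sources used here, the values of these genes are uncertain. The table held 16 pseudogenes named after 15 members, of which 2 were tested and none exceeded 66 counts in a library. In total RNA from a culture, less of an mRNA per cell cannot be told apart from fewer cells that contain it.

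Some of these genes start near a gene read in the opposite direction. For 20 members, a tested protein-coding gene started within 1000 bases on the opposite strand, a search made after the values were seen. The distance between starts ranged from 2 to 990 bases, and starts inside the member gene were included. MRPL46 and MRPS11 were counted as neighbours of each other. How many of all tested genes have such a neighbour was not determined. Of the 20 neighbours 0 were increased (against 9.07% of all tested genes) and 3 (SKA3, PELI3 and TWNK; 15%, against 13.9%) decreased by the same test. In the fit without DMSO replicate 1, 8 were increased (40%, against 22.5%), which were MITD1, NDUFS6, MRPS11, HELQ, NDUFB5, PSMA2, FAU and TCP1, and 4 decreased (20%, against 23.5%), the additional one being EME1. MRPL18 starts 109 bases from TCP1, a subunit of the cytosolic chaperonin that folds actin and tubulin. TCP1 had 690, 386, 414, 388 and 383 CPM in DMSO and 577, 735, 610, 588 and 512 CPM in SFN. As for MRPL18, DMSO replicate 1 was the only DMSO library above any SFN library, and the log2 fold change was 0.42 (adjusted p = 0.12 by edgeR) with all libraries and 0.62 (adjusted p = 0.00017) without it. MRPL43 starts 148 bases from TWNK, the helicase that replicates mitochondrial DNA. TWNK fell from 58.9 ± 3.25 to 27.1 ± 2.2 CPM (SD, n = 5 each), a log2 fold change of -1.12 (adjusted p = 1.3e-05 by edgeR). By contrast, MRPL43 had a log2 fold change of 0.18 (adjusted p = 0.68) with all libraries and 0.47 (adjusted p = 0.029) without DMSO replicate 1. With the correction for transcript length added to the latter fit, MRPL43 had 0.16 (adjusted p = 0.18). MRPL46 and MRPS11, whose starts lie 63 bases apart, had log2 fold changes of -0.07 (adjusted p = 0.85 by edgeR) and 0.41 (adjusted p = 0.11) with all libraries. Once DMSO replicate 1 was left out, that of MRPL46 was 0.06 (adjusted p = 0.80) and that of MRPS11 was 0.50 (adjusted p = 0.012). Of the last 500 bases of the MRPL46 transcript, 477 were shared with another gene on the same strand, so its reads may have been assigned to neither gene.

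The other genes of mitochondrial translation, 62 in all, held more calls in the direction of decrease, 10, than of increase, 3, with all libraries. The shares of 16.1% and 4.84% compare with 13.9% and 9.07% of all tested genes. Of 25 factors that assemble the ribosome or modify its RNA, 6 were decreased (24%, against 13.9%) and 1 increased (4%, against 9.07%). The decreased ones included FASTKD2, an RNA-binding protein required for the large rRNA, MRM1, a methyltransferase of the same RNA, NSUN4, a methyltransferase that joins in assembly, and DDX28, a helicase of large-subunit assembly. FASTKD2 had 60, 47.5, 52.3, 44.8 and 48.4 CPM in DMSO and 19.1, 16.7, 21, 22.4 and 19.8 CPM in SFN. MRM1 had 7.91, 4.88, 3.8, 4.22 and 4.56 CPM in DMSO and 1.07, 1.29, 1.64, 1.01 and 0.777 CPM in SFN. In both genes the groups were far apart, with log2 fold changes of -1.35 (standard error 0.12, adjusted p = 1.4e-05 by edgeR) for FASTKD2 and -2.13 (standard error 0.27, adjusted p = 0.00015) for MRM1, and both passed under all 18 alternatives.

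NSUN4 had a log2 fold change of -0.70 (adjusted p = 0.011 by edgeR) and passed in 17 of 18 alternatives, and DDX28 had -0.77 (adjusted p = 0.032), which was between 0.051 and 0.083 without DMSO replicate 2 or SFN replicate 1, 3, 4 or 5, 0.077 with limma-voom and 0.055 with the replicate block. The increased assembly factor was NGRN, which acts on the large rRNA, at 27.8 ± 4.03 CPM in DMSO and 43.4 ± 3.74 CPM in SFN (SD, n = 5 each). Its log2 fold change was 0.64 (adjusted p = 0.0028 by edgeR), with all SFN libraries above all DMSO libraries. NGRN passed in 17 of 18 alternatives, and its adjusted p was 0.071 with the correction for transcript length. Among 15 translation factors, GFM2, which splits the ribosome after termination, had a log2 fold change of 0.64 (standard error 0.16, adjusted p = 0.014 by edgeR). It had 25.5, 44.7, 40.6, 47.1 and 48.2 CPM in DMSO and 63.8, 57.8, 68.7, 60 and 70.3 CPM in SFN, and here DMSO replicate 1 was the lowest library. MTRF1, a release factor, had a log2 fold change of 0.45 (adjusted p = 0.029 by edgeR), with adjusted p-values from 0.052 to 0.079 when DMSO replicate 2, 3, 4 or 5 or SFN replicate 2, 3 or 4 was left out, 0.074 with no low-count filter and 0.079 with the replicate block. TACO1, which activates translation of a cytochrome oxidase mRNA, fell from 28.2 ± 4.68 to 17.5 ± 1.8 CPM (SD, n = 5 each; log2 fold change -0.69, adjusted p = 0.0032 by edgeR).

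Of 17 mitochondrial aminoacyl-tRNA synthetases, 3 were decreased (17.6%, against 13.9% of all tested genes) and 0 increased (against 9.07%). The largest change was that of MARS2, which charges methionine. MARS2 had 5.98, 6.24, 6.32, 5.66 and 7.75 CPM in DMSO and 1.91, 2.16, 4.62, 1.75 and 3.11 CPM in SFN. The groups did not overlap, although SFN replicate 3 was well above the other SFN libraries, and the log2 fold change was -1.24 (standard error 0.25, adjusted p = 0.0042 by edgeR). None of the 5 ribosomal proteins known by other symbols (DAP3, PTCD3, CHCHD1, AURKAIP1 and GADD45GIP1) passed with all libraries. Without DMSO replicate 1, DAP3, AURKAIP1 and GADD45GIP1 were increased (60%, against 22.5% of all genes) and PTCD3 was decreased (20%, against 23.5%). The median log2 fold changes with all libraries were 0.10 for the translation factors, -0.31 for the assembly factors, -0.15 for the synthetases and -0.21 for these 5 genes, beside -0.05 for the members. In these 62 genes DMSO replicate 1 was the highest DMSO library in 53.2%, against 93.6% of the members. Without it, 10 of the 62 were increased (16.1%, against 22.5% of all genes) and 14 decreased (22.6%, against 23.5%).

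**Figure D4:**
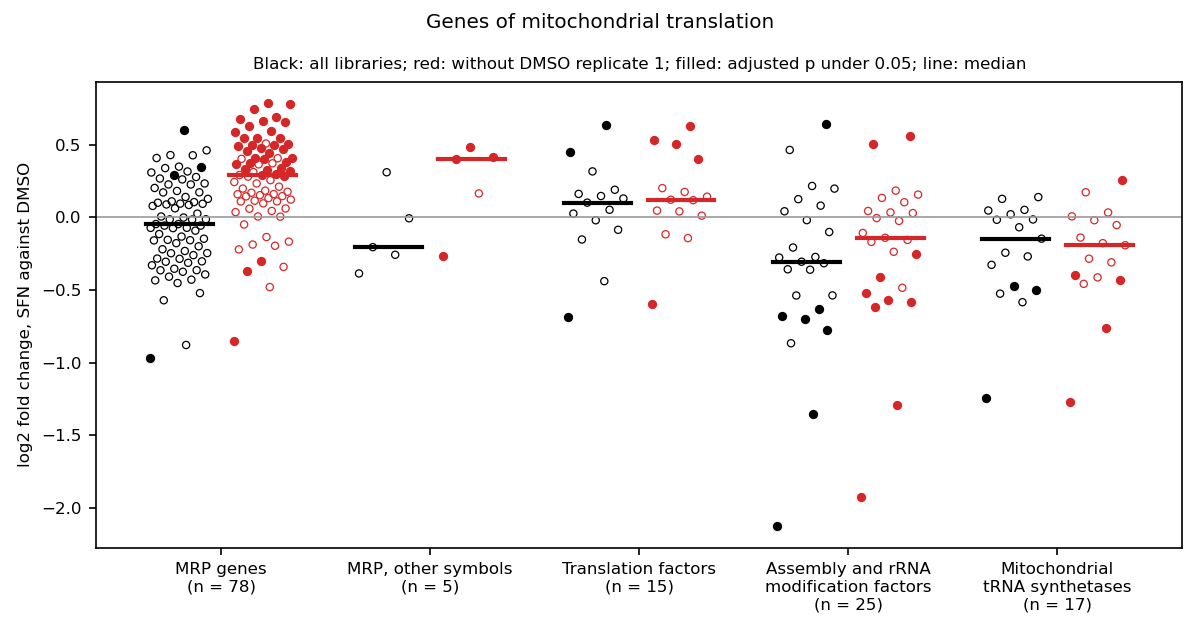
Log2 fold change (SFN against DMSO) of the members and of the other genes of mitochondrial translation by list, 1 point per gene; black points use all libraries, red points leave out DMSO replicate 1, filled points have an adjusted p under 0.05 by edgeR and lines are medians. The median of the members moves from -0.05 to 0.29 between both fits, and that of the assembly factors from -0.31 to -0.14, with MRM1 (-2.13) and FASTKD2 (-1.35) the lowest of all.

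Nuclear-encoded subunits of the respiratory chain and cytosolic ribosomal proteins, also short transcripts, had a like pattern across libraries. With all libraries 2 of 75 respiratory chain genes were increased and 0 decreased, and 0 of 82 cytosolic ribosomal protein genes were increased and 1 decreased. Of all tested genes, 9.07% were increased and 13.9% decreased. Without DMSO replicate 1, 60 (80.0%) of the former and 73 (89.0%) of the latter were increased, beside 43.6% of the members and 22.5% of all genes. With the length slope covariate, 8 respiratory chain genes were increased (10.7%) and 16 decreased (21.3%). Of the cytosolic ribosomal protein genes, 4 were then increased (4.88%) and 24 decreased (29.3%), against 24.6% and 25.6% of all genes. DMSO replicate 1 lay a median of 2.94-fold and 3.0-fold above the other DMSO libraries in these lists, beside 2.06-fold in the members. These shares are descriptions, and differences between the lists were not tested.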

How the data were processed

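The data are RNA-seq of RPE-1 cells after 4 h of DMSO or SFN (5 samples each). The deposited values are raw counts per gene, without normalization, with replicates kept separate. The submitters' processing notes list FastQC, STAR, featureCounts and edgeR and the builds hg38 and GRCh38, and the methods name QuantSeq libraries and the Bluebee pipeline. Strand and multi-mapping settings and molecular identifiers are not given in the sources used here.

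Genes were filtered with filterByExpr, libraries scaled by TMM, and SFN compared with DMSO by glmQLFit and glmQLFTest (R 4.3.3 with edgeR 4.0.16, DESeq2 1.42.0 and limma 3.58.1) with Benjamini-Hochberg adjustment over 13378 genes. Standard errors were derived from the log2 fold change and its F statistic. Increased and decreased mean an adjusted p under 0.05. The edgeR fits (also with the block and with no low-count filter), DESeq2 and limma-voom were tested on simulated counts. Those counts held no outlying library and no trend with transcript length, and the length alternatives were not tested on them. Standard errors cover the spread between replicates only, and at low counts much of it is counting error.

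Members, lists and tests were chosen with earlier results of these data known. Named were members with an adjusted p under 0.05, with values per sample for up to 8 in each direction; MRPS18A, MRPS18B, MRPS18C, MRPL12, MRPL58, MRPS30, MRPS36, MRPL44 and MRPL45 by role; up to 3 of the largest in each direction that passed without DMSO replicate 1 and not with all libraries in the main test; up to 6 pathway genes in each direction; and the members of highest and lowest CPM. MRPL43, MRPL46, MRPS11 and the neighbours were chosen after their values were seen. Transcript length correction used offsets from a lowess fit (span 0.3) on the log2 of transcript length. The fitted value was each library's log2 CPM minus the mean of all 10 libraries. The length-corrected fit without DMSO replicate 1 kept these offsets, so that library still entered the mean. The covariate alternative added each library's length slope to the model. GENCODE 44 held 28145 of the 28380 gene identifiers, and promoters are from RefSeq (GRCh38.p14). Replicate numbers were not taken as pairs, since their deviations did not correlate in every pair. The methods of the study mention that dependencies between repeated measures were accounted for, without defining them. Its mixed model (dream) was not run, and the main test treated all 10 libraries as independent.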

Additional observations from a re-analysis of the deposited data

Results flagged for a closer look

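With 5 samples per group, a sample is listed here when its gap to the nearest other sample, divided by the range of its group, exceeds 0.71 (Dixon's 95% limit). Of 56 groups examined, which were both groups of the named genes and of the summed member level, 17 exceeded it. Chance gives about 1 in 20 in independent groups, but these genes share their libraries, and MRPL23, MRPS33, MRPL47, MRPL16 and MRPS31 were named because their call changed without DMSO replicate 1, so the number is a description. In 16 of the 17 the sample was DMSO replicate 1, and in each of these it was the highest DMSO library.

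Among large-subunit genes the ratio for DMSO replicate 1 was 0.97 for MRPL45, 0.95 for MRPL44, 0.95 for MRPL47, 0.93 for MRPL23, 0.92 for MRPL18, 0.90 for MRPL16, 0.89 for MRPL12, 0.80 for MRPL58 and 0.75 for MRPS30. Among small-subunit genes it was 0.95 for MRPS18C, 0.90 for MRPS18B, 0.88 for MRPS33 and 0.72 for MRPS31. It was 0.88 for DDX28 and 0.74 for MRM1, both assembly factors, and 0.91 for the summed CPM of the members. MRPS10, MRPL3, MRPS26 and MRPS18A did not exceed the limit. The remaining sample was SFN replicate 5, the lowest SFN library, for MRPL45 (0.75).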

How the results depend on the processing

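Calls depended on the libraries and on transcript length, and the cause was not tested. The main test gave 3 members increased and 1 decreased (9.07% and 13.9%), where percentages in brackets are shares of all genes in the same fit. No low-count filter gave 1 and 2 (4.0% and 6.05%) and DESeq2 3 and 3 (12.2% and 15.9%). The correction for transcript length gave 3 and 8 (13.2% and 15.5%) and the length slope covariate 6 and 35 (24.6% and 25.6%). Length correction without DMSO replicate 1 gave 22 and 9 (25.3% and 22.4%), and a limit of 2-fold 0 and 0 (8.69% in either direction). Leaving out 1 library at a time gave 0 to 34 increased (6.66% to 22.5%) and 1 to 3 decreased (10.8% to 23.5%). Among the 62 pathway genes (3 increased, 10 decreased), the covariate gave 12 and 26 (24.6% and 25.6%), which were 19.4% and 41.9% of the list. Length correction without DMSO replicate 1 gave 13 and 19 (25.3% and 22.4%), and leaving out 1 library 2 to 10 and 8 to 14 (6.66% to 22.5% and 10.8% to 23.5%). DESeq2 size factors gave the same 3 members increased and 1 decreased as the main test (9.68% and 13.3%). With limma-voom on quantile normalized values the numbers were also 3 and 1 (9.84% and 11.5%), but MRPL53 was increased in place of MRPL3. The 3 members increased under the correction for transcript length were MRPL18, MRPL37 and MRPS10. The member median minus that of all genes, -0.0185, ranged from -0.198 to 0.293, the latter without DMSO replicate 1. The SD between DMSO libraries of the median member deviation was 0.475 with that library and 0.0838 without it.

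With the replicate number as a block, 1 member was increased (MRPL18) and 1 decreased (MRPS26), against 6.81% and 11.4% of all genes. Same-numbered samples deviated with correlations from -0.267 to 0.484, so the numbers were not used as pairs.

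Of 486 log2 fold changes (27 named genes, 18 alternatives) 378 kept direction and side of the threshold, 45 lost and 25 gained a call and 38 changed sign. The sign changed with the length correction for MRPS18A (-0.0432), with the covariate for MRPS18A (-0.0724), MRPL44 (-0.0307), MRPS33 (-0.0023) and MRPL47 (-0.0291), and with length correction without DMSO replicate 1 for MRPS18A (-0.0946), MRPS18B (0.105), MRPS18C (0.269) and MRPL23 (0.423). For MRPS18B it changed with DESeq2 size factors (0.0092) and DESeq2 (0.0091). With limma-voom it changed for MRPS18B (0.0656), MRPS18C (0.136), MRPL58 (0.0239), MRPS36 (0.164) and MRPL23 (0.277), and with the replicate block for MRPS18B (0.0804), MRPS18C (0.148), MRPL58 (0.0046), MRPS36 (0.0119) and MRPL23 (0.220). Leaving out 1 library gave -0.0136 to 0.169 for MRPS18A, -0.0969 to 0.332 for MRPS18B, -0.126 to 0.460 for MRPS18C, -0.172 to 0.234 for MRPL58, -0.213 to 0.211 for MRPS36, -0.450 to 0.790 for MRPL23, -0.0132 to 0.749 for MRPS33 and -0.0538 to 0.694 for MRPL47.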
